A study of Homo sapiens with 6 samples.

Results

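Messenger RNA of 10 genes of polyamine metabolism was followed in the human monocytic leukaemia line THP-1. Cells had received mebendazole at 10 uM, or DMSO as the vehicle control, for 6 h. The members were ODC1, AMD1, SRM, SMS, OAZ1, OAZ2, AZIN1, SAT1, SMOX and PAOX. They were taken by gene symbol, and all 10 were found among the 23710 rows of the deposited count table. The drug, an anthelmintic benzimidazole, acts on beta tubulin and blocks microtubule assembly. There were 3 libraries per group, and the labels join each treated library with a DMSO library as a numbered pair, 3 pairs in all. All libraries came from the same line in the same medium. Nothing in the labels says that libraries came from separate cultures, and p-values then cover only the spread among these libraries, which may be technical.

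Polyamines (putrescine, spermidine and spermine) are small, positively charged molecules that bind nucleic acids and are needed for growth and translation. Ornithine decarboxylase (ODC1) makes putrescine from ornithine. AMD1 makes the aminopropyl donor from S-adenosylmethionine, and SRM and SMS use it to make spermidine and then spermine. Antizymes (OAZ1, OAZ2) bind ODC1 protein and send it to the proteasome, and the antizyme inhibitor AZIN1, an ODC1 homologue without decarboxylase activity, draws antizyme away. SAT1 acetylates spermidine and spermine for export or oxidation, SMOX oxidises spermine directly, and PAOX oxidises the acetylated forms. In myeloid cells polyamines are known for their part in macrophage activation states.

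The members did not move together. ODC1 and SRM fell 5.64-fold and 3.85-fold, while SAT1 and SMOX rose 20.0-fold and 17.7-fold. AMD1, SMS, OAZ1, OAZ2 and AZIN1 moved by at most 0.38 on the log2 scale, a range in which the direction of AMD1 and OAZ1 depends on how libraries are scaled. PAOX had few reads, 38 in DMSO and 64 with mebendazole. In edgeR's quasi-likelihood test, with p adjusted by Benjamini-Hochberg and a threshold of 0.05, all 10 members were called, 8 higher and 2 lower, but 82.3% of the 13591 genes tested were called too (40.6% higher and 41.7% lower). The call alone therefore does not set these genes apart. A called change of 2-fold or more was found for 4 of the 10, against 30.4% of all genes tested. The median log2 fold change of the 10 was 0.32, against -0.03 over all genes tested.

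Promoter windows from RefSeq (GRCh38.p14, 250 bases before to 50 after an annotated start) were matched by symbol for 7 of the 10 members, in 10 windows. SMOX, PAOX and AZIN1 had no window there. The sequences of both ODC1 windows and those of SRM, SMS and SAT1 are shown because these genes moved most or stand next to each other in the pathway. Each is written 5′ to 3′ on the gene's strand, with the E-box CACGTG, a palindrome bound by MYC-MAX and related factors, in capitals.

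ODC1, upstream start, chr2:10448278-10448577, minus strand: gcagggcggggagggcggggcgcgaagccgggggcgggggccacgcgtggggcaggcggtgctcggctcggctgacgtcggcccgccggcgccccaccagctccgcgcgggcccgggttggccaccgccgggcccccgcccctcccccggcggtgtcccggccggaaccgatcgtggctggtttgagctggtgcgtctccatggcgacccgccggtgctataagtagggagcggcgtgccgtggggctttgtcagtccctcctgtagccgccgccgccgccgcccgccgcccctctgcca
ODC1, downstream start, chr2:10447963-10448262, minus strand: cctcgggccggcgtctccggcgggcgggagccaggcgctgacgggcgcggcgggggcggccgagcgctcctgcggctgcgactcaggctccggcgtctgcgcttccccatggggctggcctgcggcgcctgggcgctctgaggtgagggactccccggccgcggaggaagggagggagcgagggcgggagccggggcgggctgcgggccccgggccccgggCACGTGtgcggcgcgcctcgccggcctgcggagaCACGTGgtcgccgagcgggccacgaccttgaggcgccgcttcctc
SRM, chr1:11059969-11060268, minus strand: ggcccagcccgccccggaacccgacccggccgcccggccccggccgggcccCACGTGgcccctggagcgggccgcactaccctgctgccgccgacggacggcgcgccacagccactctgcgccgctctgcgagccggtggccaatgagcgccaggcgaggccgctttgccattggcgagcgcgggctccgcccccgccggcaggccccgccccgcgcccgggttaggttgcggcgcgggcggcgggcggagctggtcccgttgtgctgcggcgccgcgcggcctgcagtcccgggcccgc
SMS, chrX:21940459-21940758, plus strand: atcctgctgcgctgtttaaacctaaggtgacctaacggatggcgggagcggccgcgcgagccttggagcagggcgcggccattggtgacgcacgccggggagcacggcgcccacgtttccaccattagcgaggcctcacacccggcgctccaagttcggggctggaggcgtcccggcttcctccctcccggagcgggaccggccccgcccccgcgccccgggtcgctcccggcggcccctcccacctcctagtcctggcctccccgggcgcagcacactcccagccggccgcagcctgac
SAT1, chrX:23782923-23783222, plus strand: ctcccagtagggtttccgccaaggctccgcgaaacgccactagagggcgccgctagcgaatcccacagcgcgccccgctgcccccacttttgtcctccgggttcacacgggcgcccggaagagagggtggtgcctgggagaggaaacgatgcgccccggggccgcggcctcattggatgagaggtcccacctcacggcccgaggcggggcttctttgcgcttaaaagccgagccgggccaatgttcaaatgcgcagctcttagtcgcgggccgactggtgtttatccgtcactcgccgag

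CACGTG was present in windows of 2 of the 7 members, ODC1 and SRM, and in those of 8.77% of the 27305 genes with a window. ODC1 held it at chr2:10448036-10448041 and again at chr2:10448002-10448007. Both copies lie after the first exon, in an intron, of the principal ODC1 transcript in GENCODE release 29 (GRCh38), and the upstream window held none. The SRM copy lay inside its window, 199 bases upstream of the annotated start site, at chr1:11060212-11060217. The window of SMS, whose protein follows SRM in the pathway, and that of SAT1 held no copy. The cyclic AMP response element TGACGTCA was in none of the 7 members' windows (2.25% of all genes). The AP-1 motif TGANTCA was in that of OAZ2 (9.37% of all genes). The antioxidant response element TGACNNNGC was in the upstream window of ODC1 but not in its downstream window (16.1% of all genes). The GC box GGGCGG was in windows of 6 of the 7, all but SAT1, and in those of 48.3% of all genes. The motifs were searched on both strands, and TGANTCA and TGACNNNGC can share bases. A match describes the letters of these windows and does not show binding.

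Library totals ranged from 13420558 to 15727667 counts, and Spearman correlations were at least 0.997 within groups against 0.886 to 0.889 between them. All 12 monocytic markers had reads, but 8 of them were called lower, 2 higher and 2 not called with mebendazole. The largest falls were those of CYBB (189.5 to 12.9 CPM, log2 fold change -3.88), CD33 (-1.76) and CD36 (-1.57). LYZ (-0.70) and CSF1R (-0.42) fell less. The 2 called higher were CD68 (0.10) and SPI1 (323 to 638 CPM, 0.98). The summed level of the 12, which includes the rise of SPI1, was 2332 to 2465 CPM in DMSO and 2070 to 2127 CPM with mebendazole. The 8 lymphocyte markers summed to 14.6 to 16.7 CPM in DMSO and 30.7 to 33.1 CPM with mebendazole, nearly all of it NKG7 and, with mebendazole, CD8A, while CD3E had 1 read over all libraries. The 10 epithelial, stromal and endothelial markers summed to 92.2 to 103 and 128 to 150 CPM, mostly PECAM1, and COL1A2 was at 0. The 6 erythroid and megakaryocyte markers read summed to under 2 CPM in each library, with HBA1 at 0. The part of such cells in the results was not tested. Levels below are CPM, that is, read counts corrected for library size by TMM factors. They are relative to the other RNA of the same library, so fewer cells with a transcript and less transcript per cell cannot be told apart. With library totals in place of TMM the median log2 fold change of all genes shifted by -0.24, and changes smaller than that hold only relative to the scaling. Somewhat larger changes can depend on it too, as OAZ2 (0.32) and ARG2 (0.44) lost their calls with library totals.

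The first step of synthesis was lower. ODC1 had 206, 212 and 218 CPM in DMSO libraries 1 to 3 and 37.3, 37.7 and 37.7 CPM in mebendazole libraries 1 to 3. Every treated library lay far below every DMSO library, and the treated ones were nearly equal. The log2 fold change of ODC1 was -2.50 (SE over the 3 pairs 0.02, adjusted p = 8.3e-53 in edgeR, lower in 3 of 3 pairs), and 1.61% of all genes tested fell further. Very small p-values rest mostly on spread pooled over genes, since the 2 residual degrees of freedom of a gene stood against a prior of 61.

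SRM, spermidine synthase, had 168, 153 and 159 CPM in the DMSO libraries and 42.5, 38.7 and 43.6 CPM with mebendazole. The groups were again wide apart, with a log2 fold change of -1.94 (SE over pairs 0.04, adjusted p = 8.3e-46 in edgeR), and 3.80% of all genes tested fell further. GENCODE names 2 pseudogenes of SRM and 4 of AMD1, so reads of these genes could have been split between copies.

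SMS and AMD1 did not share this fall. SMS, spermine synthase, had 48.8, 54.4 and 55.0 CPM in DMSO and 71.3, 62.6 and 72.2 CPM with mebendazole, and the groups did not overlap. Its log2 fold change was 0.38 (SE over pairs 0.10, adjusted p = 1.7e-09 in edgeR), and 0.14 with library totals (adjusted p = 0.0148), where pair 2 lay at -0.04. AMD1, the decarboxylase that supplies aminopropyl groups, had 178, 174 and 174 CPM in DMSO and 199, 180 and 184 CPM with mebendazole. Its log2 fold change was 0.10 (SE over pairs 0.03, adjusted p = 0.014 in edgeR), but -0.15 with library totals (adjusted p = 2.9e-04), so its direction is set by the scaling. Without pair 1 or pair 3 the AMD1 call was lost (adjusted p = 0.137 and 0.0622).

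**Figure D1:**
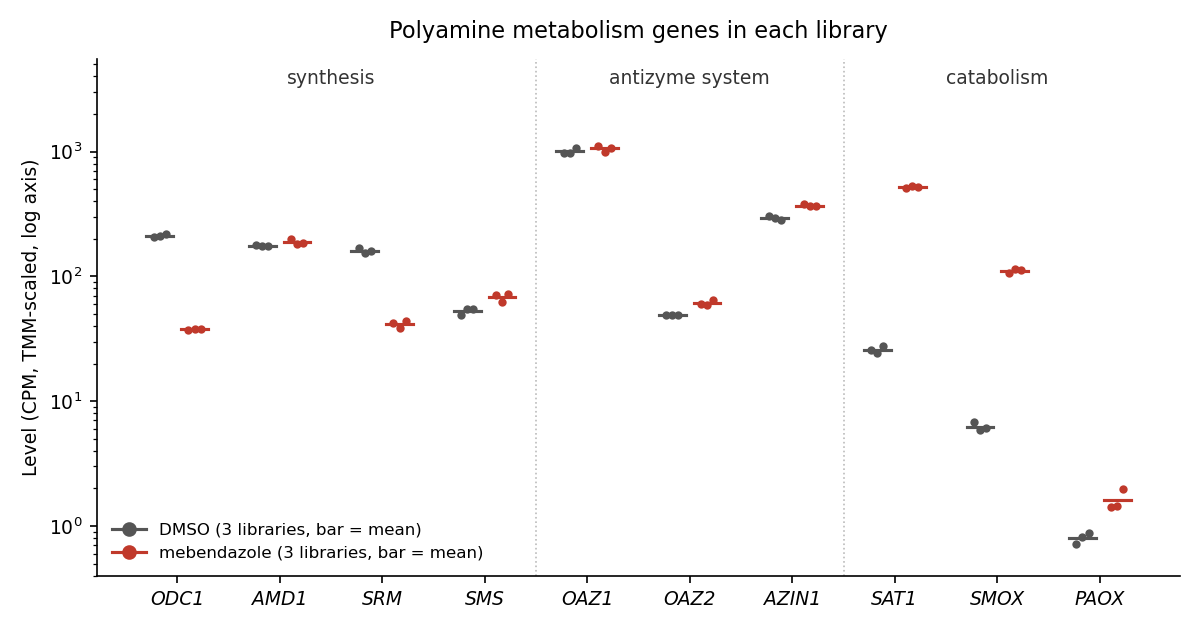
Level of each polyamine gene in each library, in CPM after TMM scaling on a log axis, by role; points are single libraries (3 DMSO, 3 mebendazole) and bars are group means. ODC1 and SRM lie lower with mebendazole, SAT1 and SMOX 20.0-fold and 17.7-fold higher, and only for OAZ1 do the groups overlap.

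The regulators of ODC1 protein changed little. OAZ1, the main antizyme, had 975, 965 and 1060 CPM in DMSO and 1114, 999 and 1073 CPM with mebendazole. These ranges overlapped. The log2 fold change of OAZ1 was 0.09 (SE over pairs 0.05, adjusted p = 0.0085 in edgeR) and became -0.16 with library totals (adjusted p = 5.8e-06). Its call was also lost without pair 1 (0.03, adjusted p = 0.253) and without the pair term (adjusted p = 0.0636).

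OAZ2, a second antizyme, had 49.2, 48.9 and 48.7 CPM in DMSO and 59.7, 58.6 and 64.6 CPM with mebendazole. All treated libraries were higher, with a log2 fold change of 0.32 (SE over pairs 0.05, adjusted p = 1.7e-07 in edgeR), but with library totals it was 0.07 and not called (adjusted p = 0.194). AZIN1 had 302, 295 and 285 CPM in DMSO and 377, 365 and 364 CPM with mebendazole, a log2 fold change of 0.33 (SE over pairs 0.01, adjusted p = 4.9e-14 in edgeR). It was 0.08 with library totals (adjusted p = 0.0196). In the GENCODE annotation AZIN1 and OAZ2 each share exon bases with an antisense gene, and OAZ1 with JSRP1 on the other strand and with a further protein-coding gene on its own strand. The library kit does not mark strand, so reads of such overlaps cannot be told apart.

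Of the catabolic genes, SAT1 and SMOX changed most. SAT1, which encodes the rate-limiting acetyltransferase of polyamine breakdown, had 25.6, 24.3 and 27.9 CPM in DMSO and 508, 527 and 522 CPM with mebendazole. The lowest treated library was thus far above the highest DMSO library. The log2 fold change of SAT1 was 4.32 (SE over pairs 0.06, adjusted p = 3.3e-67 in edgeR, higher in 3 of 3 pairs), and 1.51% of all genes tested rose further. SMOX, spermine oxidase, had 6.77, 5.90 and 6.11 CPM in DMSO and 105, 114 and 113 CPM with mebendazole. Its log2 fold change was 4.14 (SE over pairs 0.09, adjusted p = 7.4e-55 in edgeR), with 1.66% of all genes rising further.

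PAOX, the oxidase of acetylated polyamines, had few reads. There were 11, 12 and 15 in the DMSO libraries and 20, 19 and 25 with mebendazole. Its levels were 0.723, 0.814 and 0.882 CPM in DMSO and 1.42, 1.46 and 1.97 CPM with mebendazole. The ratio of summed reads was 1.98 (exact 95% interval 1.31 to 3.05, counting error only). edgeR called PAOX higher (log2 fold change 1.00, SE over pairs 0.09, adjusted p = 0.0024), whereas DESeq2 did not (adjusted p = 0.0772). It also shares exon bases with another gene annotated on the same strand.

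Groups of libraries did not overlap for 9 of the 10 members, all but OAZ1, where 82.4% of all genes tested did not overlap. Summed over the 4 synthesis genes, the level was 600 ± 5.92 CPM in DMSO and 336 ± 15.2 CPM with mebendazole (SD, n = 3). The sum of the 3 catabolic genes was 33.0 ± 1.94 against 631 ± 14.7 CPM, and that of the 3 antizyme system genes 1343 ± 44.7 against 1492 ± 64.4 CPM. In DMSO the synthesis genes thus summed higher than the catabolic genes in every library, and with mebendazole the catabolic genes summed higher in every library. These sums are not corrected for transcript length. The catabolic sum with mebendazole was mostly SAT1, at 519 of 631 CPM.

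**Figure D2:**
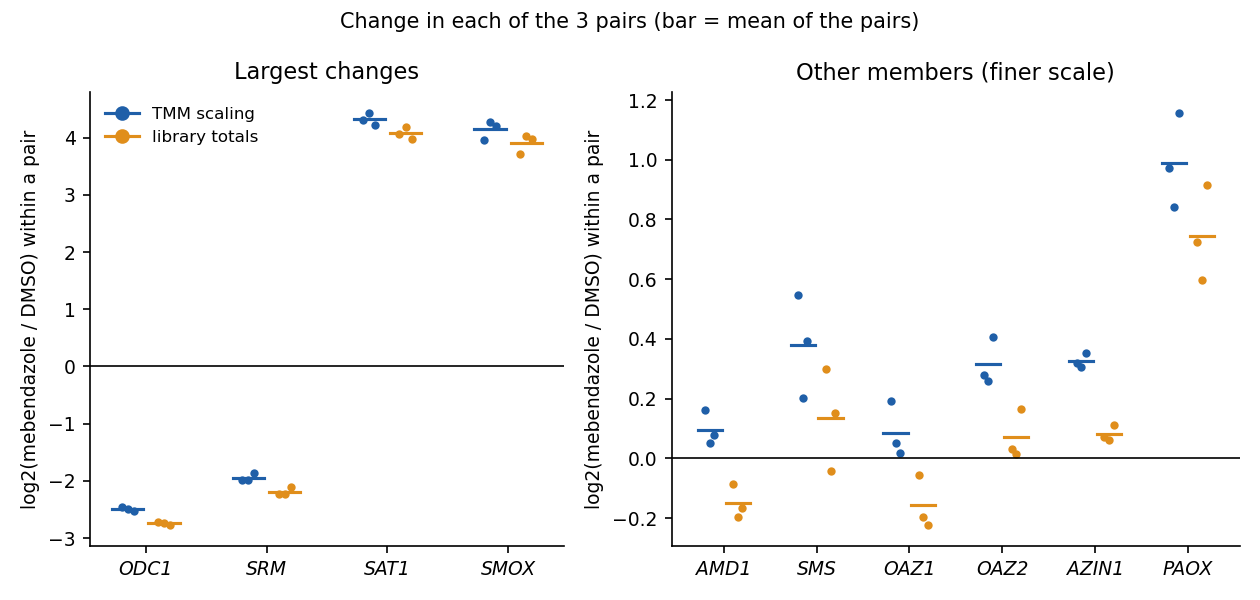
Log2 difference between mebendazole and DMSO in each of the 3 pairs, with TMM scaling (blue) and with library totals (orange); bars are means of the pairs, and the right panel has a finer scale. ODC1, SRM, SAT1 and SMOX keep their direction under both scalings, while AMD1 and OAZ1 lie above 0 with TMM and below 0 with library totals.

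Levels of different genes were compared per kilobase, with the length of the longest principal transcript in GENCODE. In DMSO the order by level per kilobase was OAZ1 (871 ± 45.2 CPM per kb), SRM (126 ± 5.96), ODC1 (79.9 ± 2.29), AZIN1 (62.3 ± 1.76), AMD1 (51.0 ± 0.53), SMS (28.7 ± 1.87), OAZ2 (25.3 ± 0.11), SAT1 (24.3 ± 1.71), SMOX (2.80 ± 0.20) and PAOX (0.434 ± 0.043) (SD, n = 3). OAZ2 and SAT1 had overlapping ranges there, 25.2 to 25.4 and 22.8 to 26.2 CPM per kb, and did not differ beyond their spread. All other neighbours in that order had ranges that did not overlap. With merged exon lengths in place of principal transcripts, SAT1 (9.72 to 11.2 CPM per kb) lay above OAZ2 (6.35 to 6.41), and the ranges of AMD1 (24.8 to 25.3) and SMS (22.6 to 25.5) overlapped.

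With mebendazole OAZ1 again came first (925 ± 50.7 CPM per kb), and SAT1 came second (487 ± 9.32), up from the eighth place. AZIN1 (78.1 ± 1.47), AMD1 (54.6 ± 2.82), SMOX (49.6 ± 2.11), SMS (37.4 ± 2.89), SRM (32.8 ± 2.05), OAZ2 (31.5 ± 1.66), ODC1 (14.2 ± 0.10) and PAOX (0.869 ± 0.165) followed. ODC1 went from the third to the ninth place. The range of SRM (30.5 to 34.4) overlapped those of SMS (34.1 to 39.3) and OAZ2 (30.3 to 33.4 CPM per kb), so the place of SRM among them is not resolved. The ranges of SMS and OAZ2 did not overlap. With merged exon lengths, OAZ1, SAT1, AZIN1, SRM and PAOX kept their places with mebendazole, and the other 5 moved by 1 or 2 places.

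Ratios of reads within a library do not depend on the scaling between libraries. In an exact two-sided permutation test 3 against 3 libraries cannot go below p = 0.1, and all 10 ratios compared reached that value (0.1 after adjustment over the 10), with no overlap between groups in any. The share for ratios of other gene pairs was not counted. Of single genes tested, 82.4% did not overlap, so the count does not set these ratios apart. For SAT1 to SMOX the gap was narrow, with a highest log2 ratio of 2.188 in DMSO and a lowest of 2.202 with mebendazole. The reads of SAT1 were 0.122 times those of ODC1 in DMSO and 13.8 times with mebendazole, a 113-fold shift. The log2 ratio of SAT1 to ODC1 was -3.01, -3.13 and -2.97 in the DMSO libraries and 3.77, 3.80 and 3.79 with mebendazole.

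ODC1 was also lower relative to the reads of its regulators. Per ODC1 read there were 4.71 OAZ1 reads in DMSO and 28.2 with mebendazole, and 1.39 and 9.81 AZIN1 reads. SRM and SMS, the consecutive aminopropyl transferases, differed in direction. The read ratio of SRM to SMS was 3.03 in DMSO and 0.606 with mebendazole, a 5.01-fold shift. Its log2 value was 1.78, 1.49 and 1.53 in DMSO and -0.75, -0.70 and -0.73 with mebendazole. For SAT1 and SMOX the read ratio was 4.14 in DMSO and 4.68 with mebendazole. The ratios of AZIN1 to OAZ1, OAZ2 to OAZ1 and SMS to AMD1 shifted by 1.18-fold, 1.17-fold and 1.22-fold.

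**Figure D3:**
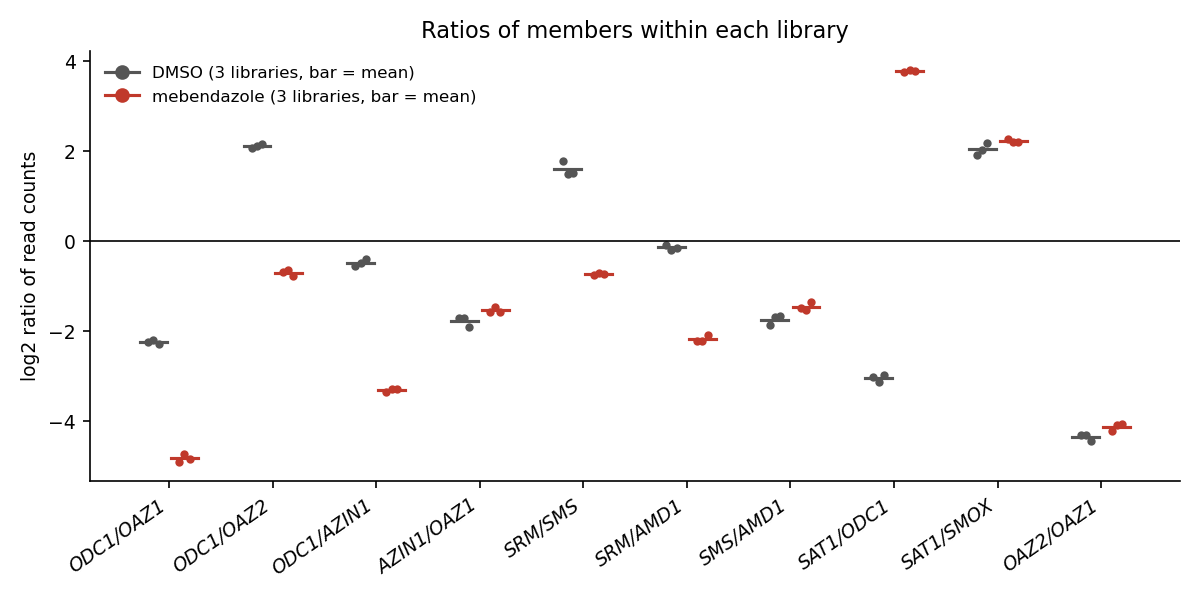
Log2 ratio of read counts of the named gene pairs within each library; points are single libraries (3 DMSO, 3 mebendazole) and bars are group means. SAT1/ODC1 goes from a mean of -3.03 to 3.79, ratios with ODC1 or SRM on top fall, and SAT1/SMOX, AZIN1/OAZ1, SMS/AMD1 and OAZ2/OAZ1 shift little.

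The pathways that feed polyamine synthesis, use its products or regulate it were read in the same fit, where 36 of 42 tested genes of 6 lists were called, against 82.3% of all genes. Of 7 tested genes of arginine and ornithine supply, 5 fell, 1 rose and 1 was not called (median log2 fold change -0.69). ALDH18A1, which makes the precursor of both proline and ornithine from glutamate, fell from 40.1 ± 0.66 to 5.71 ± 0.51 CPM (log2 fold change -2.81), and PYCR1, a proline synthesis enzyme, from 60.5 ± 1.72 to 9.28 ± 2.07 CPM (-2.71). SLC25A15, the mitochondrial ornithine carrier, and the cationic amino acid transporter SLC7A2 fell by 0.69 and 1.08 on the log2 scale. The arginine transporter SLC7A1 was at -0.14, a change that missed the threshold in DESeq2 (adjusted p = 0.0871). The arginase ARG2 rose by 0.44 (9.43 ± 1.70 to 12.8 ± 0.96 CPM), but with library totals it was not called (0.19, adjusted p = 0.0845). OAT, ornithine aminotransferase, had 35.8 ± 1.62 and 36.0 ± 1.09 CPM. ARG1 had 3 reads in DMSO and 1 with mebendazole, and OTC had none in any library, where a count of 0 allows up to 0.0639 CPM in DMSO and 0.0753 CPM with mebendazole (3 reads over a group).

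Of 9 tested genes of S-adenosylmethionine supply and methionine salvage, 7 fell and 2 rose (median -0.42). MAT2A, which makes S-adenosylmethionine, rose from 403 ± 25.2 to 740 ± 59.0 CPM (log2 fold change 0.88), whereas MAT2B, its regulatory subunit, fell (-0.42). MTR, methionine synthase, fell from 107 ± 4.26 to 44.1 ± 1.00 CPM (-1.28). The salvage enzymes ENOPH1, MRI1 and APIP fell by 0.90, 0.41 and 0.41 on the log2 scale, and AHCY, which clears S-adenosylhomocysteine, by 0.46. The call of ADI1 as higher (0.09) became lower with library totals (-0.15). MTAP, which clears the methylthioadenosine released by SRM and SMS, had 2 reads in all 3 DMSO libraries together and 0 in the mebendazole libraries, so its transcript was at or under the detection limit in both groups.

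Other enzymes of the pathway were few. AGMAT, annotated as agmatinase, fell from 13.6 ± 0.46 to 2.41 ± 0.54 CPM (log2 fold change -2.49), and SAT2, a SAT1 homologue, had 11.0 ± 0.72 and 12.0 ± 1.40 CPM (adjusted p = 0.28 in edgeR). OAZ3, a testis antizyme, had 45 and 21 reads, and AZIN2, listed under its older symbol ADC, had 20 and 29; neither was tested. Spermidine is the substrate for hypusine, a modified lysine of the translation factor EIF5A. Of 5 hypusination genes, 2 fell, 1 rose and 2 were not called (median -0.23). EIF5A fell from 217 ± 7.20 to 155 ± 1.64 CPM (-0.48) and its homologue EIF5A2 rose from 17.8 ± 1.15 to 25.1 ± 1.67 CPM (0.50). DOHH, the hydroxylase of the last step, was at -0.23 and lost its call in DESeq2 (adjusted p = 0.221) and without pair 2 or 3 (adjusted p = 0.0805 and 0.166). DHPS, deoxyhypusine synthase, was at -0.10 (adjusted p = 0.060 in edgeR), and EIF5AL1, a near copy of EIF5A that may share its reads, at -0.24 (adjusted p = 0.097). Both were called lower with library totals (-0.35 and -0.49), DHPS also with no filter (adjusted p = 0.041) or with a mean of 10 CPM required (adjusted p = 0.0129), and EIF5AL1 without pair 2 (adjusted p = 0.0302).

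Genes linked to polyamine transport were higher in 4 of 6 tested and lower in 2 (median 1.18). ATP13A3, a P5B-type ATPase that carries polyamines, had 219, 229 and 219 CPM in DMSO and 746, 715 and 720 CPM with mebendazole (log2 fold change 1.71, adjusted p = 2.6e-51 in edgeR). Its lysosomal relative ATP13A2 fell instead, from 48.8 ± 3.80 to 31.0 ± 2.31 CPM (-0.65). GPC1, a glypican whose heparan sulfate can bind spermine, rose by 1.92 and CAV1, caveolin 1, by 1.53, the latter from 51 to 126 reads. SLC3A2, the heavy chain of amino acid exchangers, rose by 0.82, and SLC22A16, an organic cation carrier, fell by 1.15. SLC22A2 and SLC22A3 had no read in any library. These genes have other substrates and roles besides polyamines.

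ODC1 and SRM are known targets of MYC, and the MYC, MAX and MXD network was read for that reason. Of 13 tested, 7 were called higher, 4 lower and 2 not called (median 0.10). With library totals the signs of MAX, MXI1, MLX and MLXIP turned. There MXI1 was called lower (-0.16, adjusted p = 0.0288 in edgeR), and MYCL1 went from 0.25 to 0.0007 and lost its call. MYC fell from 199 ± 6.66 to 114 ± 2.05 CPM (log2 fold change -0.80, adjusted p = 8.9e-29 in edgeR), against -2.50 for ODC1 and -1.94 for SRM. MXD1, which pairs with MAX and represses, had 19.8, 22.2 and 20.2 CPM in DMSO and 254, 265 and 254 CPM with mebendazole, a rise of 3.63. MXD4 (0.56) and MNT (0.71), further MAX partners, were higher too, whereas MXD3 (-0.33) and MGA (-0.62) were lower and MXI1 (0.08) was not called. The MXD3 call was lost in DESeq2 (adjusted p = 0.155) and without pair 3 (adjusted p = 0.118 in edgeR). MYCN rested on DMSO library 2, at 5.97 CPM against 1.77 and 0.235 CPM in the other DMSO libraries, and its log2 fold change went from -1.17 to 0.17 without pair 2 (adjusted p = 0.698). The part of these genes in the fall of ODC1 and SRM was not tested.

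**Figure D4:**
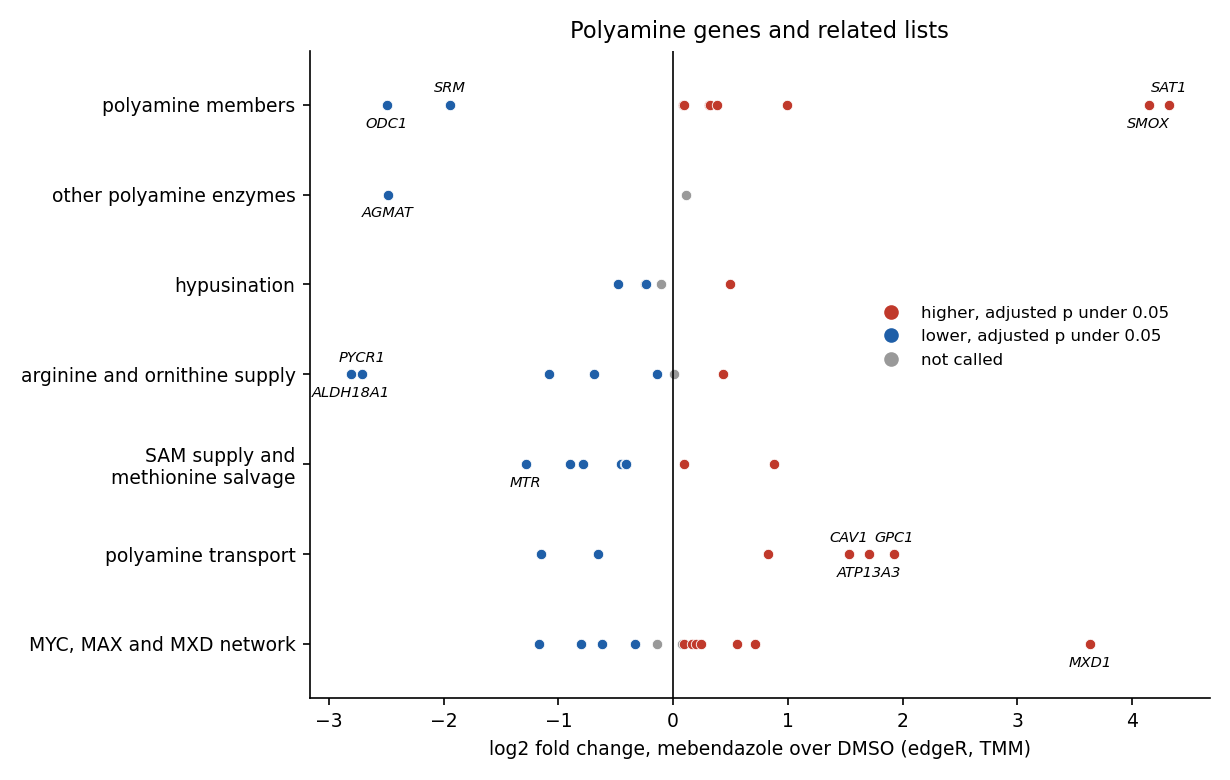
Log2 fold change (edgeR, TMM) of every tested gene in the polyamine list and in the lists around it; each point is a gene, red if called higher, blue if called lower and grey if not called (SAM, S-adenosylmethionine), and the genes with the largest changes are named. SAT1 and SMOX lie farthest right, beyond 4, and the largest falls besides ODC1 and SRM are those of ALDH18A1, PYCR1 and AGMAT.

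Among 9493 other genes with a mean of 10 CPM or more, the profiles nearest to ODC1 over the 6 libraries were those of S100A9, ZNF692 and CX3CR1. Their centred log2 levels differed from ODC1 by 0.048, 0.052 and 0.054 on average. Those nearest to SAT1 were CYTIP, MAFF and MT2A (0.027, 0.035 and 0.035). In DMSO these genes had only 2.33, 2.19 and 7.42 CPM, so they reached the mean of 10 CPM only through the mebendazole libraries. The offset of 0.5 CPM shrinks differences at such levels. Their fitted log2 fold changes were 4.52, 4.58 and 4.39, against 4.32 for SAT1. With 6 libraries in 2 groups, likeness to ODC1 or SAT1 reflects mostly a fold change of similar size.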

How the data were processed

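Libraries of 6 THP-1 samples (3 pairs of mebendazole and DMSO) were prepared from total RNA by the TruSeq RNA v2 protocol, as stated in the labels. The authors deposited a table of unnormalized read counts, with gene symbols as rows and each sample in its own column. STAR, bedtools, HTSeq, DESeq2 and the build hg19 are named, without roles, per the submitters' processing notes; no annotation, strand setting or filter was given in the sources used here. Columns of no sample numbered 0.

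The main test used edgeR 4.0.16 in R 4.3.3: filterByExpr on the group (13591 of 23710 rows kept, 99.9% of reads), TMM scaling and the quasi-likelihood F test (two-sided) with the labelled pair as a term, Benjamini-Hochberg adjusted over all genes tested. Depth was 13420558 to 15727667 counts. Log2 fold changes are from that fit; the SE is that of the 3 pair differences in log2 CPM. Alternatives were library totals, RLE factors, DESeq2 1.42.0, other filters, no pair term, a test against a 1.5-fold change and leaving out each pair. The test was run first on simulated data with far fewer changed genes than were called here, so that run does not speak to the scaling. The members and the gene lists were chosen with earlier results of these data known. All members were named, then the 4 genes of each related list with the smallest p, others as examples chosen after their values were seen, and the 3 genes nearest to ODC1 and to SAT1 (log2 of CPM plus 0.5). Markers of monocytic, lymphocyte, epithelial, stromal, endothelial, erythroid and megakaryocyte cells were read as a check, and 1 of them is not reported here. Coordinates are of GRCh38 and were used only for promoter windows, lengths and overlaps, not with the counts, which are of hg19.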

Additional observations from a re-analysis of the deposited data

How the results depend on the processing

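ODC1, SRM, SAT1 and SMOX had the same sign and call in all 10 alternatives, and 16 of 42 related genes did in each alternative that tested them. With library totals, which move the median gene by -0.24, 5 members were called higher and 4 lower, where 11500 of the 13591 genes tested were called. AMD1 went to -0.15, OAZ1 to -0.16 and OAZ2 to 0.072 (no call). SAT2 (-0.13), OAT (-0.24), ADI1 (-0.15), MAX (-0.079), MXI1 (-0.16), MLX (-0.15) and MLXIP (-0.044) also changed sign there, and related genes called higher went from 15 to 9. When a mean of 10 CPM was required, 8258 genes were called in all, and 5 members were higher. PAOX was not tested there, and AMD1 (0.063) and OAZ1 (0.053) lost their calls. OAT was at -0.030 in that setting and at -0.012 with no filter, where AMD1 (0.081) lost its call. A test against a 1.5-fold change, which asks for more, called 5774 genes, 17 instead of 36 related genes, and 2 members higher; SMS (0.38), AMD1 (0.10), OAZ1 (0.087), OAZ2 (0.32), AZIN1 (0.33) and PAOX (1.00) lost their calls. PAOX was not called by DESeq2 (1.01). Leaving out 1 pair, 6 to 8 members were higher and 2 lower, where 10572 to 10885 genes were called in all. AMD1 ranged from 0.064 to 0.14, OAZ1 from 0.035 to 0.12, OAT from -0.040 to 0.041, MYCN from -2.08 to 0.17 and MLXIPL from -0.28 to 0.047. The log2 shift of SAT1 to SMOX, 0.18, was 0.092 without pair 1. Where no cause is named, the cause was not tested.

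Fitted with no replicate block, 11118 genes and 7 members higher were called, and OAZ1 (0.087, adjusted p = 0.0636 in edgeR) lost its call. Libraries that share a pair number deviated together with correlations of -0.01, 0.14 and 0.06, and in pair 1 and pair 3 a library of another number correlated more closely. Few reads limit what can be said of PAOX, MTAP and ARG1.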
